A study of Mus musculus with 18 samples.

Results

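The RNA of NIH3T3 cells, an immortalised line of mouse embryo fibroblasts, was compared between 28 h and 16 h after the end of a dexamethasone pulse. Every culture of the series had received 100 nM dexamethasone, a synthetic glucocorticoid, for 2 h, and the change to normal medium that ended the pulse was 0 h. Cells were harvested every 4 h up to 32 h, with 2 libraries at each of the 9 times. The comparison takes 4 of these 18 libraries: replicates 1 and 2 of 28 h and replicates 1 and 2 of 16 h, chosen by the time in their labels. It covers all genes of the table, of which 12393 of 21937 averaged 10 or more normalized reads over the 18 libraries and were tested. No library came from cells without dexamethasone, and the labels name no genetic change. The harvests lie 12 h apart, so a transcript with a period of 24 h is read at opposite points of its cycle. The later harvest is also 12 h further from the pulse and the medium change. Clock phase, time since the pulse and age of the culture therefore cannot be told apart in this comparison.

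The circadian clock of mammalian cells is a transcriptional feedback loop. CLOCK and BMAL1 activate genes through E-box elements, among them the period and cryptochrome genes, whose proteins return to the nucleus and inhibit CLOCK and BMAL1. A second loop runs through the nuclear receptors REV-ERB and ROR, which repress and activate BMAL1 transcription, and the PAR bZIP factors DBP, TEF and HLF carry the rhythm to further genes through D-box elements. In fibroblast cultures each cell keeps its own clock, and a glucocorticoid pulse brings these clocks to a common phase, in part by direct activation of Per1.

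At 28 h, 83 genes were higher than at 16 h (0.67% of tested genes) and 89 were lower (0.718%), together 1.39%. These calls had Benjamini-Hochberg adjusted p-values under 0.05 in limma's moderated test. That fit does not use the replicate number, and with it as a block 13% of tested genes passed. The strongest rises outside genes with very few reads were those of clock genes. Per2, a period gene, was 8.02-fold higher, Cry1, a cryptochrome, 4.1-fold, Per3 3.47-fold, Tef, a PAR bZIP factor, 3.09-fold and Cry2 2.5-fold. With the same limit, the strongest falls were those of Serpinb2, an inhibitor of plasminogen activators, at 4.24-fold lower, and Sema7a, a membrane-anchored semaphorin, at 2.59-fold lower. Most changes were smaller: the median fold of the 172 genes was 1.35, with 14 rises and 5 falls of at least 2-fold. Fold changes are on the scale of log2(normalized reads + 1), which understates those of genes with few reads.

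In all 172 genes both libraries of one time lay beyond both of the other. Among all tested genes, 24% had both 28 h libraries above and 26.5% both below the 16 h libraries. At an unadjusted p under 0.05 there were 898 higher and 1060 lower genes. The labels do not say that the 2 libraries of a time came from separate cultures, so the p-values measure the spread between these libraries, which may be technical. A permutation of 2 against 2 single values cannot give an exact 2-sided p below 0.333, so single genes rest on the spread shared over all 18 libraries. EdgeR on the recovered reads called 94 higher (0.758%) and 85 lower (0.686%) genes, 1.44% in all, and DESeq2 167 higher (1.6%) and 213 lower (2.03%), 3.63% of the genes it tested. With the replicate number as a block, 739 genes were higher (5.96%) and 871 lower (7.03%), the 172 among them. Same-numbered libraries deviated together in all 36 pairs of times (correlations 0.230 to 0.502). The main fit and the fits with a library left out do not use this pairing. When the libraries were rescaled to equal totals, the share of higher genes among the calls was 63.4%, against 48.3% with the deposited scaling. With any single library of the 4 left out, few calls remained: 14 higher and 13 lower without 16 h replicate 1, 8 and 3 without 16 h replicate 2, 8 and 4 without 28 h replicate 1, and 7 and 4 without 28 h replicate 2. The calls of Per1, Per2, Per3, Cry1, Cry2, Tef, Acta1 and Hp held in all of these 4 fits, and every other gene named here as risen or fallen lost its call in at least 1 of them.

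**Figure D1:**
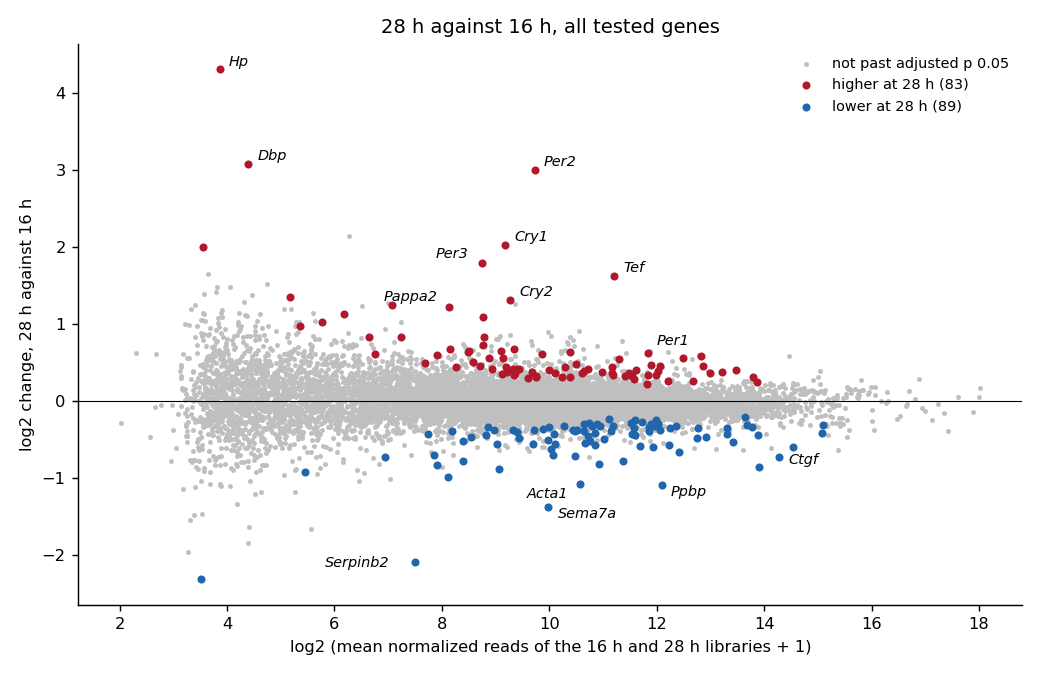
Log2 change at 28 h against 16 h for each tested gene (y axis) against log2 of its mean normalized reads over the 4 libraries plus 1 (x axis). Red points are the 83 genes past the threshold and higher, blue points the 89 that were lower, and grey points did not pass; Per2, Dbp, Cry1, Per3 and Tef stand above the cloud, and Serpinb2 and Sema7a below it.

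The period and cryptochrome repressors rose as a group. Of the 6 tested members, 5 were higher and 0 lower, and 1 did not pass, with a median log2 change of 1.56 beside -0.0047 for all tested genes. Per2 had 209 and 166 normalized reads in the 16 h libraries and 1349 and 1671 in the 28 h libraries. Each 28 h library was thus far above each 16 h library, with a log2 change of 3.004 ± 0.20 (SE, adjusted p = 5.05e-06). Per3, the paralogue of Per1 and Per2, had 217 and 168 at 16 h and 612 and 724 at 28 h, a log2 change of 1.80 ± 0.16 (adjusted p = 5.56e-05). Per1, which is also a direct target of the glucocorticoid receptor, had 2867 and 2830.4 at 16 h and 4442 and 4388 at 28 h. Its replicates lay close together, and the log2 change of 0.63 ± 0.08 was the smallest of the 3 period genes (adjusted p = 0.00277).

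Cry1, whose protein is the more potent repressor of the cryptochrome pair, had 263 and 194 at 16 h and 947 and 910.1 at 28 h. That is a log2 change of 2.04 ± 0.17 (adjusted p = 3.23e-05), and the groups did not overlap. Cry2, its partner, had 399 and 312 at 16 h and 875 and 892 at 28 h (log2 change 1.32 ± 0.12, adjusted p = 8.22e-05). The remaining member, listed as Gm129 and now called Ciart, encodes a further repressor of CLOCK and BMAL1. It had 36.3 and 26.3 at 16 h and 80.3 and 52.2 at 28 h, with a log2 change of 1.04 ± 0.28 that did not pass (adjusted p = 0.0852). It passed with the replicate block (adjusted p = 0.00394, alternatives from 0.00394 to 0.368).

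Among the PAR bZIP factors and Nfil3, which encodes a repressor that competes with them at D-boxes, 2 of 4 tested genes rose and 0 fell. Tef, an activator through D-boxes, had 1261 and 1061 normalized reads in the 16 h libraries and 3330.3 and 3842 in the 28 h libraries. All values at 28 h were well above those at 16 h, and the log2 change was 1.63 ± 0.11 (adjusted p = 5.05e-06). Dbp, the PAR factor with the largest rhythm in many tissues, was scarcely detected at 16 h in these cells, with 4 and 3 reads, and had 43 and 36 reads at 28 h. As normalized reads this was 3.73 and 3.16 at 16 h and 37.1 and 36.2 at 28 h, a log2 change of 3.09 ± 0.46 (adjusted p = 0.00636). The call of Dbp was lost when 28 h replicate 1, 16 h replicate 2 or 28 h replicate 2 was left out (adjusted p over the alternatives from 1.38e-05 to 0.0899).

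Hlf, the remaining PAR factor, had 825 and 1109.6 at 16 h and 1276 and 1820.2 at 28 h. Replicate 2 was above replicate 1 at each of the 9 times, and the change of 0.67 ± 0.32 did not pass (adjusted p = 0.332). With the block, which removes a steady difference between the replicates, it passed (adjusted p = 4.1e-05, alternatives from 4.1e-05 to 0.873). Nfil3 had 1552 and 1710.2 at 16 h and 2082 and 2102 at 28 h, a change of 0.36 ± 0.11 that passed only with the block (adjusted p = 0.125 without and 0.00047 with it, alternatives from 0.00047 to 0.522). With the block all 4 genes of this list were thus higher.

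Of the DEC repressors and E-box outputs, 2 of 4 tested genes rose. Bhlhe40, which encodes DEC1, a repressor at E-boxes, had 535 and 458 at 16 h and 787 and 805 at 28 h (log2 change 0.69 ± 0.10, adjusted p = 0.0064). Wee1, a kinase that holds back entry into mitosis, had 1135 and 1279 at 16 h and 1650.03 and 1738 at 28 h (log2 change 0.49 ± 0.07, adjusted p = 0.00636). Both were higher in each 28 h library than in either 16 h library. Bhlhe41, which encodes DEC2, had 10.2 and 13.7 at 16 h and 19.9 and 25.1 at 28 h and did not pass (adjusted p = 0.23). Usp2, a deubiquitinating enzyme under clock control, had overlapping groups, 312 and 241 at 16 h and 306 and 347 at 28 h (adjusted p = 0.419). Bhlhe40 kept its call without 16 h replicate 1 and lost it without each of the other 3 libraries (adjusted p from 0.0154 to 0.0961 over these 4 fits). Wee1 kept its call without 16 h replicate 2 and lost it without each of the other 3 (from 0.0182 to 0.102).

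None of the 3 tested REV-ERB and ROR receptors passed. Nr1d1, which encodes REV-ERB alpha, had 1030.02 and 847 normalized reads in the 16 h libraries and 749 and 653 in the 28 h libraries. Its log2 change was -0.42 ± 0.16 (adjusted p = 0.214), and it was lower with the block (adjusted p = 0.0126, alternatives from 0.0126 to 0.735). The 3' end of Nr1d1 overlaps Thra on the opposite strand, and the labels do not say whether strand was used in counting. Nr1d2, which encodes REV-ERB beta, had 563 and 532 at 16 h and 536 and 619 at 28 h. Its groups overlapped, and the change was 0.07 ± 0.11 (adjusted p = 0.793). Rora and Rorb were below the filter, with at most 2.79 normalized reads of Rora in the 4 libraries and no read of Rorb.

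BMAL1, CLOCK and their paralogues gave 0 calls among 3 tested genes. Arntl, which encodes BMAL1, had 1089 and 1067 at 16 h and 955 and 917 at 28 h (log2 change -0.20 ± 0.09, adjusted p = 0.272). Clock had 2447 and 2620.02 at 16 h and 2391 and 2270.3 at 28 h (log2 change -0.12 ± 0.06, adjusted p = 0.363). Arntl2, the paralogue of Arntl, had 56.8 and 61 at 16 h and 85.5 and 83.4 at 28 h. It did not pass without the block (adjusted p = 0.0842) and passed with it (adjusted p = 0.0343, alternatives from 0.0343 to 0.402). Npas2, the paralogue of Clock, had at most 3.01 normalized reads in the 4 libraries and was not tested.

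The list of clock kinases and ubiquitin ligases, which set the stability of the period and cryptochrome proteins, also holds Timeless and Nono, which are neither. It gave 0 calls among 9 tested genes. Their log2 changes lay between -0.16 and 0.15. Csnk1e, a casein kinase that phosphorylates period proteins, had 3623 and 3663 at 16 h and 3341 and 3195 at 28 h, the lowest change of the list, and was lower only with the block (adjusted p = 0.218 without and 0.0392 with it, alternatives from 0.0392 to 0.732). Btrc, a ubiquitin ligase subunit for period proteins, had the highest change of 0.15 ± 0.08 (adjusted p = 0.368). Csnk1d, Csnk2a1, Gsk3b, Fbxw11, Timeless and Nono were among those between them. Fbxl21 had at most 4.02 normalized reads in the 4 libraries and was not tested.

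**Figure D2:**
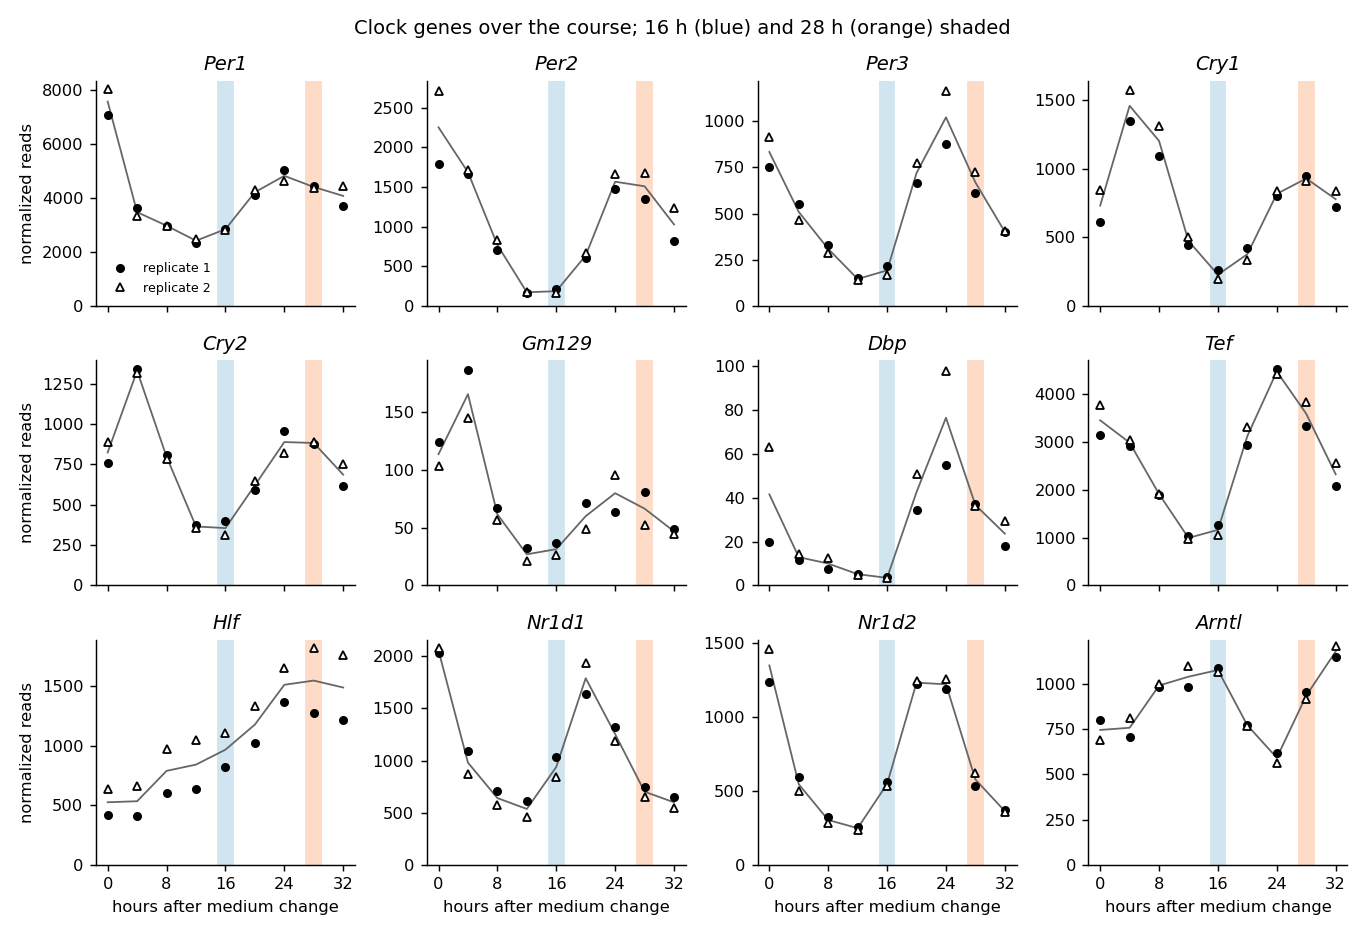
Normalized reads (y axis) of 12 clock genes against hours after the medium change (x axis), with replicate 1 as filled circles, replicate 2 as open triangles and a line through the means; 16 h is shaded blue and 28 h orange. Per2, Per3, Cry1, Cry2, Dbp and Tef are near their lowest level at 16 h and well above it at 28 h, while Nr1d1 and Nr1d2 peak between both harvests and Arntl has its low there.

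Letters of classical clock elements were searched close to the starts of the risen clock genes. Windows that held such letters are shown for Per1, Cry1, Tef and Per3. The windows are the 250 bases before annotated starts in RefSeq's promoter table (mouse build GRCm38.p6), 5' to 3' on the gene's strand, in lower case with E-boxes (CACGTG) and D-boxes (TTATGTAA or TTACGTAA) in capitals. The Per1 window at chr11:69098699-69098948 on the plus strand has an E-box that begins 166 bases before the start. The Cry1 window at chr10:85185055-85185304 on the minus strand has an E-box 60 bases before the start. The Tef window at chr15:81811164-81811413 on the plus strand has an E-box 138 bases before the start. The Per3 window at chr4:151044666-151044915 on the minus strand has 2 D-boxes, the first of them 205 bases before the start.
Per1: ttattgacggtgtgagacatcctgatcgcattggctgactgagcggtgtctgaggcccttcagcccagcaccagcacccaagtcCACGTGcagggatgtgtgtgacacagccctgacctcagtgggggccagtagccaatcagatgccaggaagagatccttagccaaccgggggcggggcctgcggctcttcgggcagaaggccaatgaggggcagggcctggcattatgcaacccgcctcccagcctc
Cry1: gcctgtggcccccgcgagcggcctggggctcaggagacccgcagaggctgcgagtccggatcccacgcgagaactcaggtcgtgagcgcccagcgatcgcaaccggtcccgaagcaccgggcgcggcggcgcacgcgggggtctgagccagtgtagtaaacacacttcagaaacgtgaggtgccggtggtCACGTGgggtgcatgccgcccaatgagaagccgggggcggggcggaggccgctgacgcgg
Tef: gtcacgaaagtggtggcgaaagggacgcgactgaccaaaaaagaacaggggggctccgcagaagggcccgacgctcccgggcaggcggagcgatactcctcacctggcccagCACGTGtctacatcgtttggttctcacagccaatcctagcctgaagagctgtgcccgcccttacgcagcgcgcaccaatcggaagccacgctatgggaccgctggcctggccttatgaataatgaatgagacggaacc
Per3: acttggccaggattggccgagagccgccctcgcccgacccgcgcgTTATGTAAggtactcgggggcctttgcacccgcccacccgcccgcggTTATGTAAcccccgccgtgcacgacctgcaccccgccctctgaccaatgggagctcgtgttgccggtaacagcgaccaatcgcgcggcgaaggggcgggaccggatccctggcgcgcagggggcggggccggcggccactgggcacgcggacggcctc

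A second Tef start, with its window at chr15:81802423-81802672, also had an E-box, 127 bases before it, and the windows of Cry2, Dbp and a second Per1 start held none of these letters. Per2, Bhlhe40 and Wee1 were without an entry in the table. E-box letters were about as frequent in risen as in fallen genes. They stood in 12.7% of 79 windows of risen genes (60 of 83 genes matched by symbol) and in 12.5% of 80 windows of fallen genes (61 of 89 matched). Of all 32851 windows 6.02% held them, but these include genes not tested here, and the share among tested genes was not counted. The Per1, Cry1 and Tef windows with an E-box are among those of risen genes. D-box letters were in 1.27% of the windows of risen genes, 0% of those of fallen genes and 0.931% of all. The ROR element, searched as TAGGTCA, all motifs on both strands, was in 1.27%, 2.5% and 2.23%. An E-box and a ROR element can share end letters, the D-box shares none with either, and a match describes the sequence and does not show binding.

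Outside the clock lists, the largest rises among genes that averaged 50 or more normalized reads in the 4 libraries were those of Car11, Pappa2, Plekha4, Bmf and Des. Car11, a member of the carbonic anhydrase family without catalytic activity, had 98.7 and 61 normalized reads in the 16 h libraries and 162 and 213 in the 28 h libraries (log2 change 1.25 ± 0.22, adjusted p = 0.0145). Pappa2, a protease that releases insulin-like growth factors from their binding proteins, had 153 and 178 at 16 h and 319 and 471 at 28 h (log2 change 1.23 ± 0.26, adjusted p = 0.0377). In both genes the replicates differed among themselves, but neither 28 h value came down to a 16 h value. Bmf, a pro-apoptotic protein of the BCL2 family, had 252 and 302 at 16 h and 531 and 657 at 28 h (log2 change 1.10 ± 0.24, adjusted p = 0.0405). Plekha4, a pleckstrin homology protein that binds membrane lipids, had 48.4 and 40 at 16 h and 89.8 and 106 at 28 h (adjusted p = 0.0292), and Des, the muscle intermediate filament desmin, 40 and 29.4 at 16 h and 82.1 and 62.3 at 28 h (adjusted p = 0.0387). With the replicate block the limma adjusted p was 1.2e-06 for Bmf, 1.09e-05 for Pappa2, 0.000269 for Car11, 0.000519 for Plekha4 and 0.000971 for Des. In the fits without the block, Car11 kept its call when 16 h replicate 1 was left out and lost it without each of the other 3 libraries. The other 4 genes lost theirs without any single library of the 4 (adjusted p in those fits from 0.104 to 0.362 for Bmf and 0.0872 to 0.3 for Plekha4). Hp, which encodes the haemoglobin scavenger haptoglobin, was singled out after its values were seen. It had 1 and 0 reads at 16 h and 29 and 28 reads at 28 h (adjusted p = 0.000336), and no fold is given against so few reads.

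The largest falls described here were led by Serpinb2, Sema7a and Ppbp. Serpinb2 had 372 and 212 normalized reads in the 16 h libraries and 87.2 and 49.2 in the 28 h libraries. Replicate 2 was below replicate 1 at both times, yet the higher 28 h value was below the lower 16 h value (log2 change -2.08 ± 0.42, adjusted p = 0.0287). Sema7a had 1788 and 1144 at 16 h and 632 and 482 at 28 h (log2 change -1.37 ± 0.30, adjusted p = 0.0386). Ppbp, a CXC chemokine precursor, had 6499 and 5347 at 16 h and 3124 and 2452 at 28 h (log2 change -1.09 ± 0.24, adjusted p = 0.0386). Replicate 2 was below replicate 1 at both times in these genes too. With the replicate block Serpinb2 (limma adjusted p = 5.2e-08), Sema7a (8.0e-09) and Ppbp (4.3e-10) passed. The fits with a library left out do not use the block. Serpinb2, Sema7a and Ppbp each lost the call without any single library of the 4 (adjusted p from 0.0714 to 0.313, 0.0905 to 0.347 and 0.0871 to 0.362 in those fits).

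Acta1, the skeletal muscle actin, which serum and actin dynamics drive through SRF, had 1978 and 2159 at 16 h and 878 and 1102 at 28 h (log2 change -1.07 ± 0.12, adjusted p = 0.000553). Its sequence is close to that of other actins, so reads could have been split among them. Crispld2, a secreted protein, had 321 and 409 at 16 h and 173 and 195 at 28 h (log2 change -0.98 ± 0.14, adjusted p = 0.00592). Timp1, an inhibitor of matrix metalloproteinases, had 2568 and 2400.2 at 16 h and 1419 and 1400.3 at 28 h (log2 change -0.82 ± 0.13, adjusted p = 0.0068). It lies in an intron of Syn1 on the opposite strand. Ankrd1, a muscle ankyrin repeat protein that is a common readout of YAP, had 3435 and 3257 at 16 h and 1971 and 1929 at 28 h (log2 change -0.78 ± 0.13, adjusted p = 0.0105). Erc2, a scaffold protein, had 306 and 306 at 16 h and 144 and 205 at 28 h (adjusted p = 0.02). Crispld2 lost its call when 28 h replicate 1 or 16 h replicate 2 was left out (adjusted p from 0.00968 to 0.0905 over the 4 fits), and Erc2 when either of these or 16 h replicate 1 was (from 0.0129 to 0.151). Timp1 and Ankrd1 lost theirs without any single library (from 0.068 to 0.0901 and 0.0761 to 0.126).

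**Figure D3:**
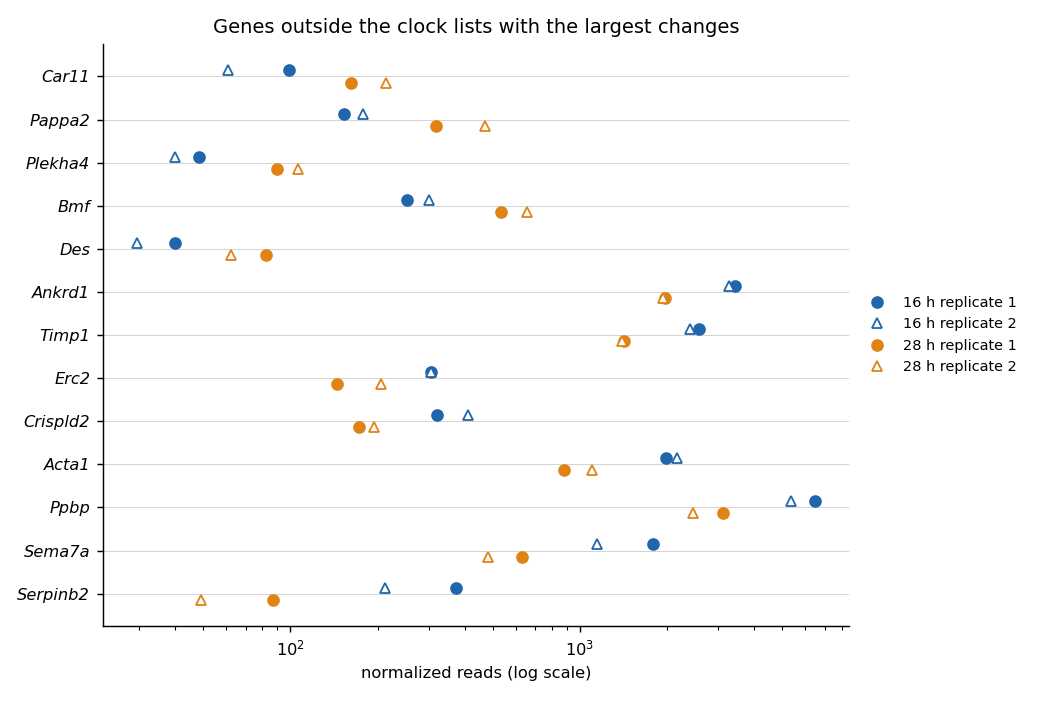
Normalized reads on a log axis (x axis) for the genes outside the clock lists with the largest rises and falls (y axis), with 16 h in blue and 28 h in orange and replicate 1 as filled circles and replicate 2 as open triangles. In each gene both 28 h libraries lie on one side of both 16 h libraries, from Car11 at the top, with 162 and 213 against 98.7 and 61.0, to Serpinb2 at the bottom, with 87.2 and 49.2 against 372 and 212.

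The 172 genes were next read by lists of pathways and cell functions. Of 648 listed genes 644 were in the table, and Ajuba, Col6a3, Tfeb and Map2 were not analysed here. Of the 172 genes 32 were in a list and 140 in none. The 23 lists set apart for having no call by limma held 321 tested members, where 1.39% of all tested genes were called. Of the 321, 97 had an unadjusted p under 0.05, beside 1958 of the 12393 tested genes. EdgeR called 0 of the 321 and DESeq2 4 higher and 15 lower, beside 1.44% and 3.63% of all genes that each tested. Per1 and Acta1 kept their calls in all fits with a library left out, as given above. Each other list member named below as passing without the block lost its call without any single library of the 4, unless said otherwise. Counts with the block stand beside its shares over all tested genes, 5.96% higher and 7.03% lower. YAP and TAZ targets, genes switched on in spread and stretched cells, had 3 of 12 tested members lower, 0 higher and a median log2 change of -0.21, with 12 of 12 changes below 0. Ctgf, a matricellular growth factor also known as CCN2, had 24634 and 24817 at 16 h and 15196 and 14714 at 28 h (log2 change -0.73 ± 0.12, adjusted p = 0.0102). Cyr61, its relative CCN1, had 29608 and 27663 at 16 h and 18583 and 19426 at 28 h (log2 change -0.59 ± 0.11, adjusted p = 0.0178), and Ankrd1 was the third. With the block 6 of the 12 were lower, adding Axl, Crim1 and Nuak2.

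SRF and MRTF cytoskeletal targets had 1 of 21 lower, Acta1, and 0 higher, with a median of -0.15. With the block 9 were lower, among them the smooth muscle genes Acta2 (log2 change -0.39 ± 0.15), Tagln (-0.63 ± 0.15), Tpm1 and Tpm2. The SEs given here are those of the fit without the block. TGF-beta feedback and ID genes had 2 of 16 lower, among them Ltbp1, a protein that stores latent TGF-beta in the matrix (log2 change -0.35 ± 0.08, adjusted p = 0.0405), and 0 higher. With the block 3 fell and 2 rose. The extracellular matrix list moved both ways. Timp1 and Fbn1, the microfibril protein fibrillin-1, were lower (Fbn1 15381 and 15906 at 16 h and 12071 and 12795 at 28 h, adjusted p = 0.0235), and Thbs2, thrombospondin-2, was higher (6909 and 7257 at 16 h and 9010.4 and 9343 at 28 h, adjusted p = 0.0423), leaving 28 of 31 that did not pass. With the block 7 matrix genes were higher, with Lox, Mmp2, Col6a1 and Col6a2 among them, and 8 lower, with Tnc, Thbs1, Col5a1 and Col5a2 among them.

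Sterol synthesis was the list outside the clock with the most rises: 3 of 22 were higher, 0 lower, and 19 of 22 changes were above 0, with a median of 0.20. Pmvk, a kinase of the mevalonate pathway, had 296 and 267 at 16 h and 449 and 439 at 28 h (log2 change 0.66 ± 0.09, adjusted p = 0.0044). Lss, lanosterol synthase, had 874 and 872 at 16 h and 1096 and 1234 at 28 h (log2 change 0.41 ± 0.08, adjusted p = 0.02), and Fdft1, squalene synthase, 1359.7 and 1379 at 16 h and 1666 and 1861 at 28 h (log2 change 0.36 ± 0.08, adjusted p = 0.0394). With the block 9 were higher, with Mvd, Fdps, Cyp51, Nsdhl and Insig1 among those added. Pmvk kept its call without 16 h replicate 1. Of 12 fatty acid synthesis genes 0 passed, and with the block Scd1 was higher and Acaca lower.

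Cell cycle genes passed in few cases. E2f8, a repressor of E2F target genes, was lower (1401 and 1342 at 16 h and 1119 and 1074 at 28 h, log2 change -0.32 ± 0.06, adjusted p = 0.0239), 1 of 12 E2F factors and pocket proteins. Ccnb2, cyclin B2, was higher (572 and 583 at 16 h and 768 and 774 at 28 h, log2 change 0.42 ± 0.08, adjusted p = 0.0298), 1 of 30 mitosis (G2/M) genes. Of 30 DNA replication (G1/S) genes 0 passed, although 25 changes were below 0 and the median was -0.13. Of the 30 mitosis genes 17 changes were above 0 and 13 below, with a median of 0.03. With the block, which called 7.03% of all tested genes lower and 5.96% higher, the calls of the replication and mitosis lists parted. Of the replication genes 7 were lower and 0 higher (Cdc45, Prim1, Fen1, Rrm1, Rrm2, Ccne1 and Chaf1b). Of the mitosis genes 7 were higher and 0 lower (Ccnb1, Ccnb2, Cdc20, Cenpa, Kif20a, Ube2c and Nek2). In bulk RNA a change in the share of cells in a phase and a change in the RNA per cell cannot be told apart. The E2F list had 4 lower and 1 higher with the block, and the 7 CDK inhibitors and D cyclins had 0 calls, or 1 lower, Ccnd1, with it. Of 17 replication-dependent histones 5 were tested and 0 passed.

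Responses to hormones and growth factors gave calls in both directions. Of 19 glucocorticoid receptor targets, Per1 and Ddit4, an inhibitor of mTOR signalling (1853 and 1681 at 16 h and 2335 and 2276 at 28 h, adjusted p = 0.0495), were higher, and Tgm2, transglutaminase 2 (4304 and 5055 at 16 h and 2967 and 3229 at 28 h, log2 change -0.59 ± 0.09, adjusted p = 0.00792), was lower. The call of Tgm2 held without 16 h replicate 1. With the block 8 were higher, with Tsc22d3, Mt1, Errfi1, Cebpd, Pdk4 and Rgs2 added. Of 27 immediate early genes Fosl2, an AP-1 subunit (5943 and 6012 at 16 h and 7196 and 7108 at 28 h, adjusted p = 0.0249), was higher and Klf6, a zinc finger factor (3988 and 4369 at 16 h and 3145 and 3242 at 28 h, adjusted p = 0.0235), lower. The block gave 3 higher and 4 lower. The NF-kB and cytokine genes had 0 calls among 21 and the interferon-stimulated genes 0 among 16, with 2 higher and 5 lower, and 2 higher and 0 lower, with the block.

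Stress and metabolic lists mostly did not pass. Of 20 ATF4 targets, Ddit4 was higher and Mthfd2, a mitochondrial folate enzyme (5783 and 5808 at 16 h and 4656 and 4653 at 28 h, adjusted p = 0.00707), lower, and the block gave 3 each way. Among 20 NRF2 targets Ftl1, ferritin light chain (13609 and 13479.8 at 16 h and 15667 and 16572 at 28 h, adjusted p = 0.047), was higher and Taldo1, transaldolase (5617 and 5316 at 16 h and 4384 and 4199 at 28 h, adjusted p = 0.0235), lower, or 5 and 3 with the block. Ftl1 has near-identical copies in the genome, so its level is uncertain. Hypoxia and glycolysis genes (28 tested), respiratory chain subunits (29), lysosome and autophagy genes (23) and cold-inducible RNA-binding proteins (3) had 0 calls. With the block these lists gave 2 higher and 3 lower, 1 and 0, 3 and 0, and 1 and 0, beside 5.96% higher and 7.03% lower of all tested genes. The hypoxia median of -0.02 turned positive with equal totals.

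Lists of protein production and folding had 0 calls but many with the block, in directions that differed between lists. Of 30 tested cytosolic ribosomal protein genes, 30 had changes above 0, with a median of 0.16, and 18 were higher with the block (5.96% of all genes). These genes have many processed copies, so their counts are uncertain. Of 29 ribosome biogenesis genes 28 had changes below 0, with a median of -0.12, and 12 were lower with the block (7.03% of all genes), among them Nop56, Nop58, Nolc1 and Dkc1. Endoplasmic reticulum chaperones had a median of -0.18, and 9 of 20 were lower with the block. Among them were Hsp90b1 (-0.24 ± 0.09), Calr (-0.28 ± 0.08) and Pdia4 (-0.33 ± 0.08), with the SE of the fit without the block. For cytosolic heat shock proteins 5 of 13 were lower with the block, and for proteasome subunits 8 of 26, with medians of -0.13 and -0.10.

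**Figure D4:**
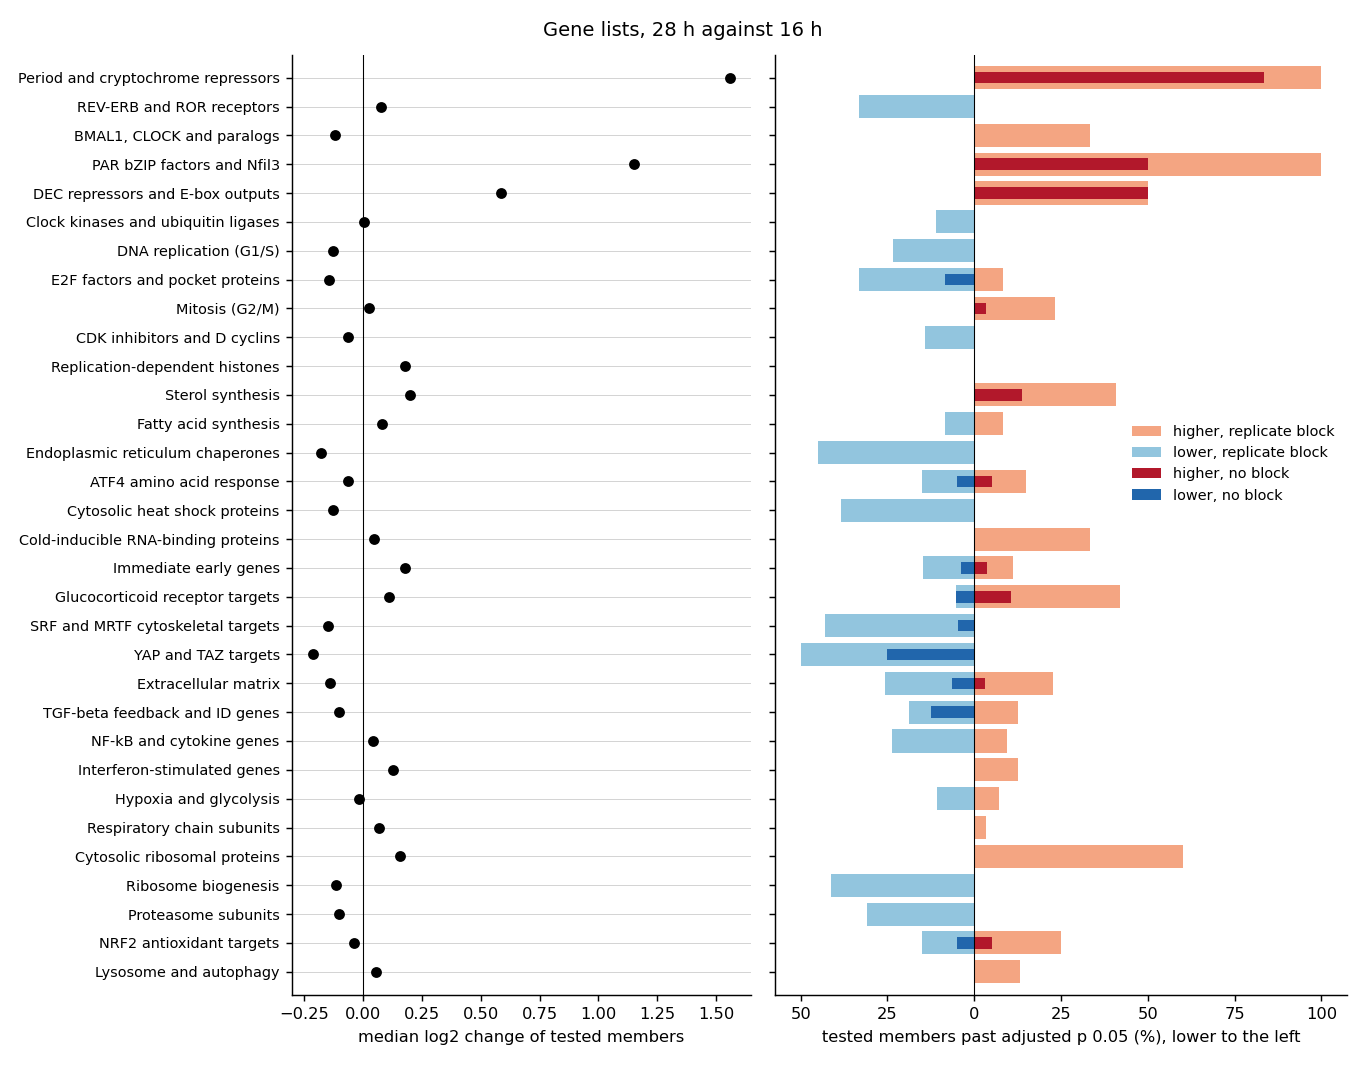
Left, the median log2 change at 28 h against 16 h of the tested members of each list (x axis; lists on the y axis); right, the percent of tested members past the threshold, higher to the right and lower to the left, without (narrow dark bars) and with (wide pale bars) the replicate block. The period and cryptochrome repressors and the PAR bZIP factors have the highest medians, 1.56 and 1.15, and the YAP and TAZ targets the lowest, -0.21.

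The fibroblast label was checked against marker genes. All 9 fibroblast markers were tested and 0 were at 0, with summed levels of 887103 and 935881 normalized reads at 16 h and 895456 and 930293 at 28 h. Of these, Pdgfrb, a receptor for platelet-derived growth factor, was higher at 28 h (9559.8 and 10068 at 16 h and 12959 and 13048 at 28 h, adjusted p = 0.00798), and with the block S100a4 and Pdgfra were higher too. Epithelial markers summed to 245 and 248 at 16 h and 219 and 196 at 28 h, with Epcam and Krt19 at 0 in the 4 libraries. Leukocyte markers summed to 511 and 394 against 529 and 418, with Emr1, Cd3e and Tyrobp at 0, and endothelial markers to 360.4 and 301 against 325 and 301, with Kdr and Cldn5 at 0. Adipocyte markers summed to 592 and 612 against 682 and 969, with Plin1, Lep and Cidec at 0, and neural markers to 472 and 405 against 342 and 300.4, with Rbfox3 and Olig2 at 0. Skeletal muscle markers summed to 112 and 71.5 against 128 and 122, with Myod1 and Myog at 0, and Des, given above, was the only risen member. Without the block no listed marker of another cell type apart from Des passed, and with it Lpl was also higher and Krt8 and Tubb3 were lower. Acta1, the skeletal muscle actin, was not on the muscle list. It fell from 1978 and 2159 normalized reads at 16 h to 878 and 1102 at 28 h.

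Over the course, most of the 172 genes moved stepwise between both harvests. The means of 16 h, 20 h, 24 h and 28 h followed one another in a single direction in 64 of the 83 risen and 84 of the 89 fallen genes. Choosing genes by their 16 h and 28 h values favours such an order, and its share among all tested genes was not counted. Of the risen genes 12 were higher at 20 h or 24 h than at 28 h, and of the fallen genes 1 was lower there. Tef was one of the former, with 1161 ± 141, 3121 ± 253, 4469 ± 76.2 and 3586 ± 362 normalized reads at these times (SD, n = 2). Per3 took the same course, with 193 ± 34.4, 719 ± 73.9, 1021 ± 205 and 668 ± 79. The mean of Acta1 went down at each step from 4 h to 32 h, with values from 6624 ± 289.9 at 4 h through 2069 ± 128 at 16 h to 989.9 ± 159 at 28 h. Over all 9 times, 56 of the 83 risen genes (67.5%) were highest at 28 h or 32 h and 21 at 0 h or 4 h. Of the 89 fallen genes 61 (68.5%) were highest at 0 h or 4 h and 78 (87.6%) lowest at 28 h or 32 h. Choosing genes by 28 h against 16 h in part sets these shares. Among all tested genes 22% were highest and 22.6% lowest at 28 h or 32 h, and 41.5% were highest at 0 h or 4 h.

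Whether the clock genes were back at the level of 24 h before 28 h was read from 28 h against 4 h, which shares the 28 h libraries with the main comparison. In that comparison 41.4% of all tested genes differed, 2557 higher and 2569 lower, or 5053 and 1445 with equal totals, which moved the median change of all genes up by 0.179 on the log2 scale. Per2 had 1687 ± 35.3 normalized reads at 4 h (SD, n = 2) and 1509.5 ± 228 at 28 h, a log2 change of -0.17 ± 0.20 that did not pass (adjusted p = 0.53) and was 0.01 with equal totals. Tef had 2983 ± 90.4 and 3586 ± 362 (0.26 ± 0.11, adjusted p = 0.0776), and Per3 509 ± 60.4 and 668 ± 79 (0.39 ± 0.16, adjusted p = 0.0604). With the replicate block both passed as higher at 28 h (adjusted p = 0.0218 for Tef and 0.023 for Per3), as they did with equal totals. Cry1 was lower at 28 h than at 4 h (1457 ± 158 and 928 ± 26, log2 change -0.65 ± 0.17, adjusted p = 0.00696). Cry2 was also lower (1331 ± 18.4 and 884 ± 12, -0.59 ± 0.12, adjusted p = 0.0015), and so was Gm129 (log2 change -1.32 ± 0.28, adjusted p = 0.00193). Csnk1e (-0.71 ± 0.06, adjusted p = 7.91e-07) and Nr1d1 (-0.48 ± 0.16, adjusted p = 0.0262) were lower as well, though Nr1d1 lost its call with equal totals. Nr1d2 did not pass (0.09 ± 0.11, adjusted p = 0.557). Other clock genes were higher at 28 h than at 4 h. Among them were Timeless (0.65 ± 0.10, adjusted p = 0.000199), Arntl2 (0.64 ± 0.14, adjusted p = 0.00207) and Btrc (0.36 ± 0.08, adjusted p = 0.00184). The log2 change was 1.55 ± 0.32 for Hlf (adjusted p = 0.00148) and 1.44 ± 0.46 for Dbp (adjusted p = 0.0217). It was smaller for Per1 (0.34 ± 0.08, adjusted p = 0.00403), Wee1 (0.34 ± 0.07, adjusted p = 0.00221) and Arntl (0.31 ± 0.09, adjusted p = 0.0124).

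Some other risen genes lay near their 4 h level and others far from it. Plekha4 did not pass against 4 h (log2 change 0.22 ± 0.23, adjusted p = 0.48). Fosl2 changed by 0.03 and Fdft1 by 0.07, or by 0.21 and 0.25 with equal totals. Bhlhe40 had 2798 ± 122 normalized reads at 4 h against 796 ± 12.5 at 28 h (log2 change -1.81 ± 0.10, adjusted p = 3.29e-08), so its rise from 16 h was small beside the earlier fall. Pappa2 had 79.8 ± 12.8 at 4 h and 395 ± 108 at 28 h (log2 change 2.28 ± 0.26, adjusted p = 1.37e-05), and Bmf 165 ± 47.7 and 594 ± 88.9 (1.87 ± 0.24, adjusted p = 3.2e-05). The leading fallen genes were all lower at 28 h than at 4 h. Sema7a had 11416 ± 1261 at 4 h and 557 ± 106 at 28 h (log2 change -4.36 ± 0.30, adjusted p = 1.09e-07), and Ctgf 93647 ± 3299 and 14955 ± 341 (-2.65 ± 0.12, adjusted p = 3.92e-09). The sterol genes Pmvk and Lss were lower at 28 h than at 4 h despite their rise from 16 h (log2 change -0.36 ± 0.09 and -0.21 ± 0.08, adjusted p = 0.00589 and 0.0398), calls that were lost with equal totals (-0.18 and -0.03).

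The 12 h interval that begins 4 h earlier, 24 h against 12 h, compares none of the 4 libraries. It gave 412 higher (3.32%) and 385 lower genes (3.11%), together 6.43%. Of the 83 genes that rose from 16 h to 28 h, 58 also rose there (69.9% of the 83 and 14.1% of the 412). Of the 89 that fell, 68 also fell (76.4% of the 89 and 17.7% of the 385), and 0 genes passed in opposite directions. The sign was shared by 82 of 83 and 89 of 89, and its share among all tested genes was not counted. Both comparisons come from 1 fit to all 18 libraries, so their calls share each gene's estimate of the spread. Among the clock genes, Per2 changed by 3.004 ± 0.20 in the later interval and 3.17 ± 0.20 in the earlier on the log2 scale, and Cry2 by 1.32 ± 0.12 and 1.28 ± 0.12. Per3 had 1.80 ± 0.16 and 2.78 ± 0.16, and Cry1 2.04 ± 0.17 and 0.79 ± 0.17. The difference between the intervals did not pass for Per2 (-0.17 ± 0.28, adjusted p = 0.999), Per3 (-0.98 ± 0.22, adjusted p = 0.663) or Cry1 (1.25 ± 0.24, adjusted p = 0.5). With the replicate block it passed for Per3 (adjusted p = 0.0438) and Cry1 (adjusted p = 0.014), and not for Per2 (adjusted p = 0.877).

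In the test of that difference, 2 genes were lower (0.0161%) and 0 higher, with 458 at an unadjusted p under 0.05, and edgeR gave 2 lower and 0 higher and DESeq2 2 lower and 1 higher. The 2 genes were Nr1d2 and Nr1d1. At the times of 12 h, 16 h, 24 h and 28 h Nr1d2 had 248 ± 12.9, 547 ± 21.4, 1222 ± 47.4 and 578 ± 58.2 normalized reads. It thus rose by 2.30 ± 0.11 from 12 h to 24 h (adjusted p = 5e-08), while 16 h and 28 h did not differ beyond their spread. Nr1d1 had 536 ± 105, 938 ± 129.6, 1254 ± 90.2 and 701 ± 67.9, and rose by 1.24 ± 0.16 from 12 h to 24 h (adjusted p = 0.000608). Arntl, their target, fell by 0.81 on the log2 scale from 12 h to 24 h (adjusted p = 0.000248), beside -0.20 ± 0.09 from 16 h to 28 h, and this difference (0.61 ± 0.12) passed only with the block (adjusted p = 0.516 without and 0.0337 with it). From 12 h to 24 h 20 of 30 mitosis genes rose, beside 1 of 30 from 16 h to 28 h, and 14 of 20 endoplasmic reticulum chaperones fell, beside 0 of 20. Without the block no gene of these lists passed the test of the difference, which compares both intervals gene by gene. With it, 11 genes were higher and 18 lower in that test, among them the mitosis genes Cenpf, Hmmr, Kif23, Nusap1 and Ube2c, lower, and the chaperones Hspa5, Hyou1 and Hsp90b1, higher.

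**Figure D5:**
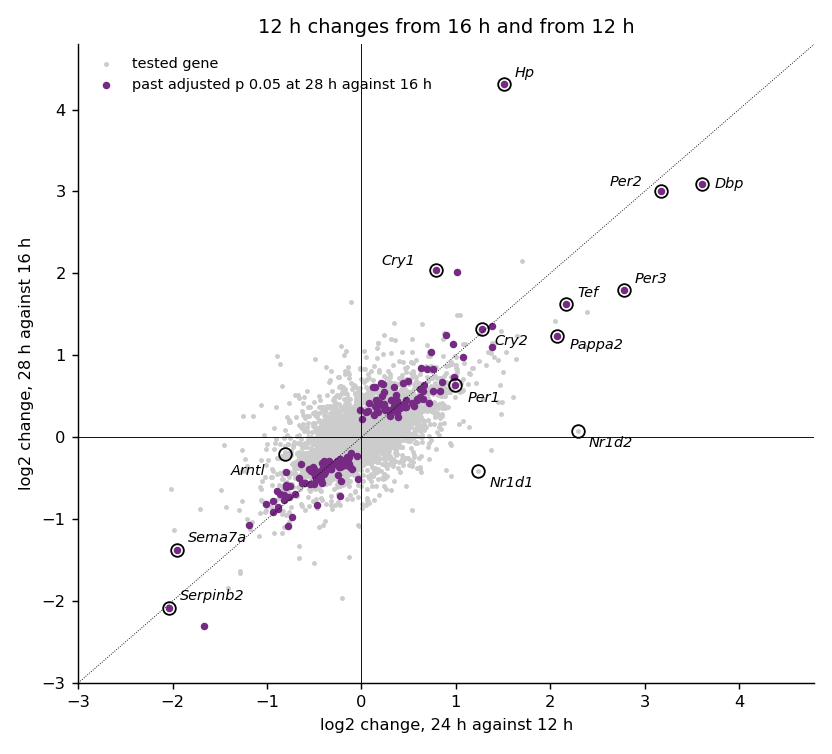
Log2 change from 16 h to 28 h (y axis) against log2 change from 12 h to 24 h (x axis) for all tested genes in grey, with the 172 genes past the threshold at 28 h against 16 h in purple, selected genes ringed and a dotted line of equal change. Per2, Dbp and Serpinb2 lie near the line, and Nr1d2 and Nr1d1 lie far to the right of it, at 2.30 and 1.24 on the x axis and 0.07 and -0.42 on the y axis.

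Between 29.4 and 34.8 M reads of a library fell in genes, and the 10 most abundant genes took 5.87% to 6.46% of a library. The normalized totals were 30.5 and 30.9 M at 16 h and 30.0 and 30.3 M at 28 h. The smallest sizes of change that passed were a log2 of 0.23 among rises and 0.20 among falls.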

How the data were processed

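RNA of 18 libraries of NIH3T3 cells, 2 at each of 9 times, was measured by single-end sequencing. The values are a signal: in the deposited table the authors had divided the reads counted for a gene by a single factor for each library. Per the submitters' processing notes TopHat, HTSeq, DESeq and the genome build mm9 were used, without versions or roles, and the annotation is not given in the sources used here. Whole reads were recovered by dividing each column by its step: 100% of values were whole within 0.02 reads (largest distance 0.0061), and edgeR 4.0.16 and DESeq2 1.42.0 were run on them as alternatives.

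Genes that averaged 10 or more normalized reads entered a limma 3.58.1 fit (R 4.3.3) on log2(value + 1), with a variance trend, all 18 libraries, 1 mean per time and a 2-sided Benjamini-Hochberg threshold of 0.05. The comparisons were 28 h against 16 h, 28 h against 4 h, 24 h against 12 h and the difference between both 12 h intervals. The fit was tested on simulated data. Named genes are all measured members of 6 clock lists, the 10 highest and 10 lowest passing genes that averaged 50 or more over the 4 libraries and groups that do not overlap, leaving out clone names and small RNAs, and up to 3 passing members of each other list; a few genes that these rules name are not reported here. Members, lists and rules were chosen with earlier results of these data known.

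Other pseudocounts and filters, equal totals, quantile normalization, robust shrinkage, only the libraries compared, a replicate block and leaving out each library were alternatives. Where 1 library of a time remained, the spread of the other times stood in for it. The replicate numbers pair the libraries: same-numbered libraries deviated together above 0.1 in all 36 pairs of times (0.230 to 0.502; 16 h with 28 h 0.378), and the labels give no source for this. Genes are named by the table's symbols, with no coordinates on mm9.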

Additional observations from a re-analysis of the deposited data

Results flagged for a closer look

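The changes of Nr1d1 and Nr1d2, which encode the REV-ERB repressors, differed between the 12 h from 16 h to 28 h and the 12 h from 12 h to 24 h, by the test of the difference itself. For Nr1d2 the change from 16 h to 28 h minus that from 12 h to 24 h was -2.22 ± 0.15 on the log2 scale (SE, limma, adjusted p = 8.39e-06), with both 24 h libraries above both 12 h libraries and overlapping values at 16 h and 28 h. For Nr1d1 it was -1.65 ± 0.22 (adjusted p = 0.0201), with both 24 h libraries above both 12 h libraries and both 28 h libraries below both 16 h libraries. Nr1d2 had its highest means after 0 h at 20 h and 24 h (1233 ± 11.6 and 1222 ± 47.4 normalized reads, SD, n = 2), and Nr1d1 at 20 h (1789.7 ± 209), times that neither 16 h nor 28 h samples.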

How the results depend on the processing

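The 83 higher and 89 lower genes at 28 h against 16 h were 51 and 58 without a filter, 167 and 213 with DESeq2, 37 and 40 with only the libraries compared, 739 and 871 with the replicate block, and 97 and 56 with equal totals. Leaving out 1 library gave 7 to 14 higher and 3 to 13 lower. The other 6 settings stayed within 1.5 times of these counts. No gene was called in opposite directions between settings, and Per1, Per2, Per3, Cry1, Cry2, Tef and Acta1 passed in all 15 alternatives. For 28 h against 4 h, equal totals gave 5053 higher and 1445 lower genes, and leaving out 1 library 1610 to 2058 higher. For 24 h against 12 h, the block gave 1360.0 higher and 1383 lower, only the libraries compared 148 and 116, and leaving out 1 library 121 to 212 and 87 to 255. In the difference between both intervals DESeq2 gave 1 higher, the block 11 higher and 18 lower, only the libraries compared 1 lower, and leaving out 1 library 1 to 2 lower. Of 875 values of named genes under alternatives, 705 kept direction and call, 161 lost the call, 6 gained it and 3 changed sign: Nr1d2 without 28 h replicate 2 and Gsk3b without 16 h replicate 1 and without 28 h replicate 2. With 1 library left out their log2 changes ran from -0.0284 to 0.177 and from -0.0819 to 0.0875. Both genes did not pass in any setting. Fewer libraries enter the fits without a library or with only the libraries compared, and more genes are tested without the filter; for the other settings the cause was not tested. The 4 compared libraries had 29.4 to 34.8 M reads in genes. With 2 libraries a time, changes of genes with few reads, such as Dbp and Hp at 16 h, are the least precise.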

Other observations

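Several of the 140 passing genes in no list have well known roles and are named here after their values were seen. Among the fallen genes, Itgb1, the integrin beta 1 chain, went from 38895 ± 558 normalized reads at 16 h to 31327 ± 197 at 28 h (SD, n = 2, log2 change -0.31 ± 0.06, limma adjusted p = 0.0154). Msn, moesin, which links actin to the membrane, went from 39485 ± 1950.3 to 29774 ± 2379.8 (-0.41 ± 0.09, adjusted p = 0.0455). Hbegf, an EGF receptor ligand, went from 1323 ± 133 to 821 ± 139 (-0.70 ± 0.16, adjusted p = 0.0445), and Jag1, a Notch ligand, from 1647 ± 29.6 to 1279 ± 51.4 (-0.37 ± 0.08, adjusted p = 0.0446). Pmepa1, a feedback inhibitor of TGF-beta signalling that was not on that list, went from 2034 ± 22.9 to 1419 ± 96.6 (-0.52 ± 0.08, adjusted p = 0.00796).

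Among the risen genes, Xdh, xanthine dehydrogenase, went from 3191 ± 70.9 to 4422 ± 109.5 normalized reads (0.47 ± 0.08, adjusted p = 0.0152), and Ephx1, microsomal epoxide hydrolase, from 6222 ± 56.3 to 8598 ± 424 (0.47 ± 0.07, adjusted p = 0.00552). Pdxk, pyridoxal kinase, which makes the active form of vitamin B6, went from 2024 ± 1.36 to 2972 ± 1.55 (0.55 ± 0.08, adjusted p = 0.00628). Hdac5, a class IIa histone deacetylase, went from 3629 ± 15.1 to 4971 ± 194 (0.45 ± 0.07, adjusted p = 0.00798), and Kdm4b, a histone demethylase, from 766 ± 12 to 952 ± 23.8 (0.31 ± 0.07, adjusted p = 0.0424). All 10 of these genes had both libraries of one time beyond both of the other, and all lost their call without at least 1 of the 4 libraries.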
